A study of Drosophila melanogaster with 8 samples.

Results

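The storage protein genes of the fly fat body were followed through 8 RNA-seq libraries of Drosophila melanogaster imaginal discs. The genes were taken by symbol, with earlier results of these data known: Lsp1alpha, Lsp1beta, Lsp1gamma, Lsp2, Fbp1, Fbp2 and apolpp, 7 of the 15348 genes counted. All 7 reached a normalized level of 1 CPM (counts scaled by library size) in at least 1 library, as did 10029 genes in all, which are called considered genes here. The libraries held 17152279 to 21027972 assigned counts, and the 7 genes took 0.00599 to 0.529% of them. Every group had 1 library, so no difference between genotypes has a replicate check, no test was possible, and the intervals given are 95% intervals for counting error only. Reads were counted without molecular identifiers and are not independent molecules.

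By the labels, discs of 50 to 60 wandering larvae per genotype were dissected, and genotypes reached wandering at different ages, given as days after egg laying. The 7 eye-antennal libraries all carried y,w,eyflp, the act>y+>Gal4 driver with UAS-GFP, and FRT82 e, tub-GAL80 over an FRT82 chromosome, so that the eyflp recombinase made marked clones in otherwise unmarked discs. The control library (5 days) had nothing further. The RasV12 library (5 days) added UAS-Ras[V12], an always-active Ras. The BskDN library (11 days) added UAS-Bsk[DN], a dominant-negative form of Basket, which is the JNK (Jun N-terminal kinase) of the fly. The scrib BskDN library (6 days) combined UAS-Bsk[DN] with clones mutant for the polarity gene scrib on the FRT82 e chromosome. The genotype labels of the 4 libraries with scrib clones end at an open bracket and may be cut short. The RasV12 scrib tumour genotype was sampled as an early (7 days) and a late (11 days) library, and RasV12 scrib BskDN (6 days) is the same genotype with JNK blocked. The scrib wing library (6 days) came, by its title and source label, from wing discs of scrib[2]/scrib[1] larvae, although the dissection text given with every sample names eye-antennal discs. It was without clones, Gal4 or GFP, and had no control of its own, so it was left out of the comparisons in which genes were called. Its levels are given, and it has a place in each order of libraries. Folds between scrib wing and its neighbours there set different labelled tissues side by side. In all libraries, RNA was of whole discs with mutant and other cells together, and fewer cells of a type and less RNA per cell cannot be told apart. Levels of Ras85D were highest in the 4 libraries with the Ras transgene (426 to 1181 CPM against 252 to 284), and levels of bsk were highest in the 3 with UAS-Bsk[DN] (749 to 1891 against 92.4 to 109). The level of scrib was 363 to 510 CPM in all libraries and does not tell the scrib libraries apart. The eye genes eya and so had levels of 27.2 and 24.2 CPM in scrib wing, below the 83.9 to 284 and 34.1 to 109 CPM of the eye-antennal libraries. The wing genes vg and nub had levels of 2.18 and 3.63 CPM in scrib wing, within the range of the eye-antennal libraries, whose lowest values were 1.45 and 3.58 CPM, so the wing label was not borne out by them.

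The fat body of the larva makes storage hexamerins, large blood proteins that fill the hemolymph of the last instar and are taken back up before metamorphosis as an amino acid reserve. Lsp1alpha, Lsp1beta and Lsp1gamma encode the subunits of larval serum protein 1, and Lsp2 encodes larval serum protein 2. Fbp1 encodes the receptor through which the fat body takes hexamerins back up, and its transcription depends on the steroid hormone ecdysone. Fbp2 encodes a fat body protein related to alcohol dehydrogenase, and apolpp encodes apolipophorin, the scaffold of the lipoprotein that carries lipids through the hemolymph. Imaginal discs are epithelia and are not known as a source of storage proteins. No sequence of these genes is printed, since the files used here hold none.

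The summed level of the 7 genes was 404 CPM in control, 1339 in RasV12, 492 in RasV12 scrib BskDN, 177 in scrib wing, 691 in scrib BskDN, 58.7 in the early tumour, 5525 in BskDN and 329 in the late tumour. BskDN was highest and the early tumour lowest, 94.2-fold apart. When the libraries were ordered by this sum, no neighbours had overlapping counting intervals. RasV12 had 3.31 times the control level at the same labelled age (95% interval 3.23 to 3.40), and the early tumour, at 7 days, was below RasV12 by 22.8-fold (21.6 to 24.2). The late tumour, of the same age as BskDN, was below it by 16.8-fold (16.4 to 17.2). Per exon length the late tumour changed places with scrib wing in the order of the sum, and without Fbp1 it stood 4th and RasV12 scrib BskDN 6th.

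**Figure D1:**
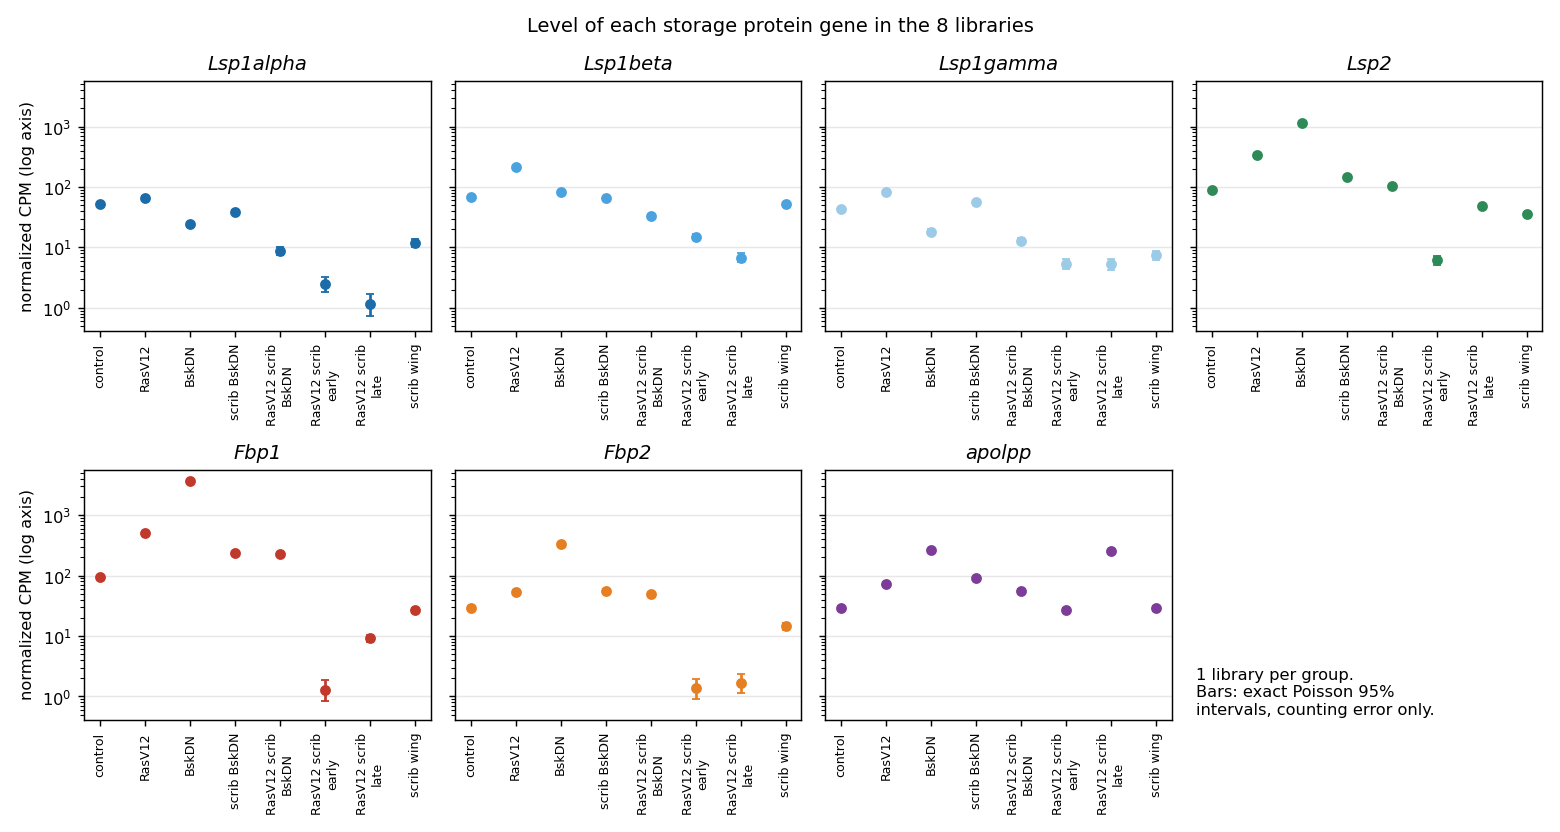
Level of each of the 7 genes (normalized CPM, log axis) in each of the 8 libraries, 1 point per library, with exact Poisson 95% intervals for counting error as bars. Fbp1 runs from 1.29 CPM in the early tumour to 3641 in BskDN, the Lsp1 genes are highest in RasV12, and apolpp is at 257 in the late tumour and 266 in BskDN.

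Lsp1alpha (FBgn0002562, X:12490291-12492982, plus strand, 2 exons in the BDGP6 annotation) stood at 52.1 CPM in control, 66.5 in RasV12, 8.67 in RasV12 scrib BskDN, 11.9 in scrib wing, 38.7 in scrib BskDN, 2.48 in the early tumour, 24.0 in BskDN and 1.15 in the late tumour. The level was highest in RasV12 and lowest in the late tumour, 58.0-fold apart, and all neighbours in the order differed by more than counting error. The late tumour value rests on 23 counts, with an interval of 0.727 to 1.72 CPM.

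Lsp1beta (FBgn0002563, 2L:898500-901316, plus strand) stood at 68.8 CPM in control, 213 in RasV12, 32.7 in RasV12 scrib BskDN, 52.1 in scrib wing, 64.8 in scrib BskDN, 15.0 in the early tumour, 82.0 in BskDN and 6.78 in the late tumour. It had the highest level of the Lsp1 genes in every library, also per exon length, although in the late tumour the interval of its ratio to Lsp1gamma holds equality (0.997 to 1.69). Control and scrib BskDN were 1.06-fold apart, with a counting interval that holds equality (0.983 to 1.15). The range over libraries was 31.5-fold.

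Lsp1gamma (FBgn0002564, 3L:66430-68995, plus strand) stood at 42.6 CPM in control, 83.0 in RasV12, 12.8 in RasV12 scrib BskDN, 7.38 in scrib wing, 55.3 in scrib BskDN, 5.24 in the early tumour, 17.7 in BskDN and 5.24 in the late tumour. Its range of 15.8-fold was the narrowest of the Lsp1 genes. Between the early and late tumour it was 1.00-fold apart (0.758 to 1.32), the only neighbours in its order whose interval holds equality. Like Lsp1alpha, which was 1.61-fold higher, it stood above its BskDN level in scrib BskDN, by 3.12-fold.

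Lsp2 (FBgn0002565, 3L:12129393-12131869, plus strand) stood at 87.8 CPM in control, 336 in RasV12, 103 in RasV12 scrib BskDN, 35.3 in scrib wing, 147 in scrib BskDN, 6.14 in the early tumour, 1157 in BskDN and 47.6 in the late tumour. Unlike the Lsp1 genes, it was higher in BskDN than in RasV12, and higher in the late tumour than in the early one. The range was 188-fold, and all neighbours in the order differed by more than counting error. An antisense RNA, asRNA:CR11538, overlaps 2096 exonic bases of Lsp2 in the annotation and has no row in the count table. As the strand setting was not given in the sources used here, reads of that antisense RNA and of Lsp2 cannot be told apart.

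Fbp1, the hexamerin receptor gene (FBgn0000639, 3L:14094589-14098053, minus strand), had the widest range of the 7. It stood at 94.8 CPM in control, 513 in RasV12, 229 in RasV12 scrib BskDN, 27.0 in scrib wing, 239 in scrib BskDN, 1.29 in the early tumour, 3641 in BskDN and 9.18 in the late tumour. From lowest to highest the level differed by 2831-fold, between 27 counts in the early tumour and 68711 in BskDN. In BskDN the gene ranked 92 of 9571 genes by CPM per kilobase of exon (kb), and in the early tumour 8385. The closest libraries were scrib BskDN and RasV12 scrib BskDN, 1.04-fold apart (1.00 to 1.08, an interval that just excludes equality).

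Fbp2 (FBgn0000640, 2L:9426784-9427917, plus strand) stood at 29.3 CPM in control, 54.2 in RasV12, 49.6 in RasV12 scrib BskDN, 14.6 in scrib wing, 56.3 in scrib BskDN, 1.38 in the early tumour, 338 in BskDN and 1.65 in the late tumour. BskDN was again highest. The level in scrib BskDN was 1.04-fold that in RasV12, with an interval that holds equality (0.955 to 1.13), and the level in RasV12 was 1.09-fold that in RasV12 scrib BskDN, with one that just excludes it (1.00 to 1.19). The late and early tumour were 1.19-fold apart (0.702 to 2.03). Its exons share 48 bases with CG42847.

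The lipoprotein gene apolpp (FBgn0087002, 4:1060969-1077273, plus strand) had another pattern. It stood at 28.7 CPM in control, 73.4 in RasV12, 55.8 in RasV12 scrib BskDN, 28.9 in scrib wing, 90.0 in scrib BskDN, 27.2 in the early tumour, 266 in BskDN and 257 in the late tumour. The late tumour and BskDN, both at 11 days, were 1.03-fold apart with an interval that holds equality (0.994 to 1.08), as were scrib wing and control (1.01-fold, 0.889 to 1.14) and control and the early tumour (1.05-fold, 0.936 to 1.19). Its range of 9.77-fold was the narrowest of the 7. The gene shares 96 exonic bases with Zyx on the other strand. It shares 676 with the annotated element HB{}1552, also on the other strand, which has no row in the count table.

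Per kb of exon, Fbp1 had the highest level of the 7 in RasV12 (148 CPM per kb), BskDN (1051), scrib BskDN (69.0) and RasV12 scrib BskDN (66.2). Lsp2 was highest in control (35.4 CPM per kb), Lsp1beta in the early tumour (5.44) and scrib wing (18.9), and apolpp in the late tumour (21.8). Of the summed level per kb, Fbp1 made up 17.7% in control, 31.1% in RasV12, 36.9% in RasV12 scrib BskDN, 12.1% in scrib wing, 27.7% in scrib BskDN, 2.49% in the early tumour, 55.3% in BskDN and 5.27% in the late tumour. The apolpp share was 1.19 to 3.81% outside the tumours, 15.5% in the early tumour and 43.5% in the late tumour. Lsp2 kept between 16.6 and 38.2% in all 8 libraries. The make-up of this RNA differed between libraries as well as its amount.

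**Figure D2:**
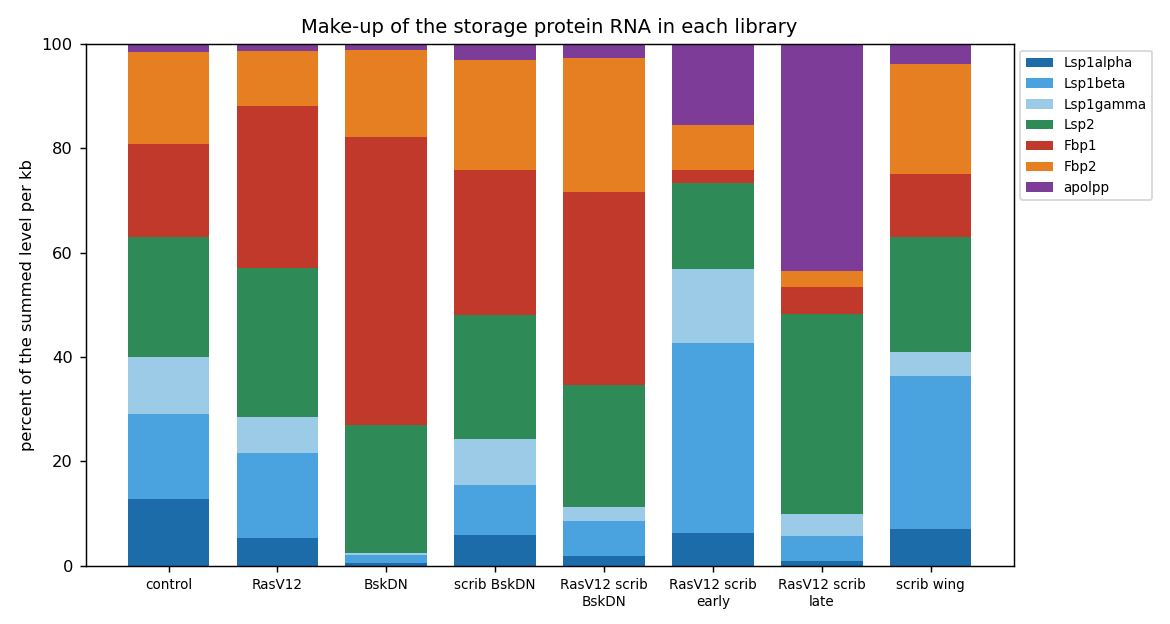
Share of each gene in the summed level per kb of exon of the 7 genes (percent, stacked bars, 1 bar per library). Fbp1 fills 55.3% of the BskDN bar and 2.49% of the early tumour bar, while apolpp fills 43.5% of the late tumour bar.

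Within a library the ratio of 2 genes does not depend on the scaling between libraries. Counts of Fbp1 per count of the 3 Lsp1 genes together were 0.580 in control, 1.41 in RasV12, 4.23 in RasV12 scrib BskDN, 0.378 in scrib wing, 1.51 in scrib BskDN, 0.0567 in the early tumour (0.0370 to 0.0836), 29.4 in BskDN (28.2 to 30.7) and 0.697 in the late tumour. This ratio of the receptor gene to the hexamerin genes spanned 519-fold. Lsp2 per Lsp1 count was 0.537 in control, 0.925 in RasV12, 1.91 in RasV12 scrib BskDN, 0.494 in scrib wing, 0.926 in scrib BskDN, 0.271 in the early tumour, 9.35 in BskDN and 3.61 in the late tumour. The libraries at 11 days, BskDN and the late tumour, had the highest values of this ratio. For apolpp per Fbp1 count, the values were 21.1 and 28.0 in the early and late tumour and 0.0730 to 1.07 in the others.

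**Figure D3:**
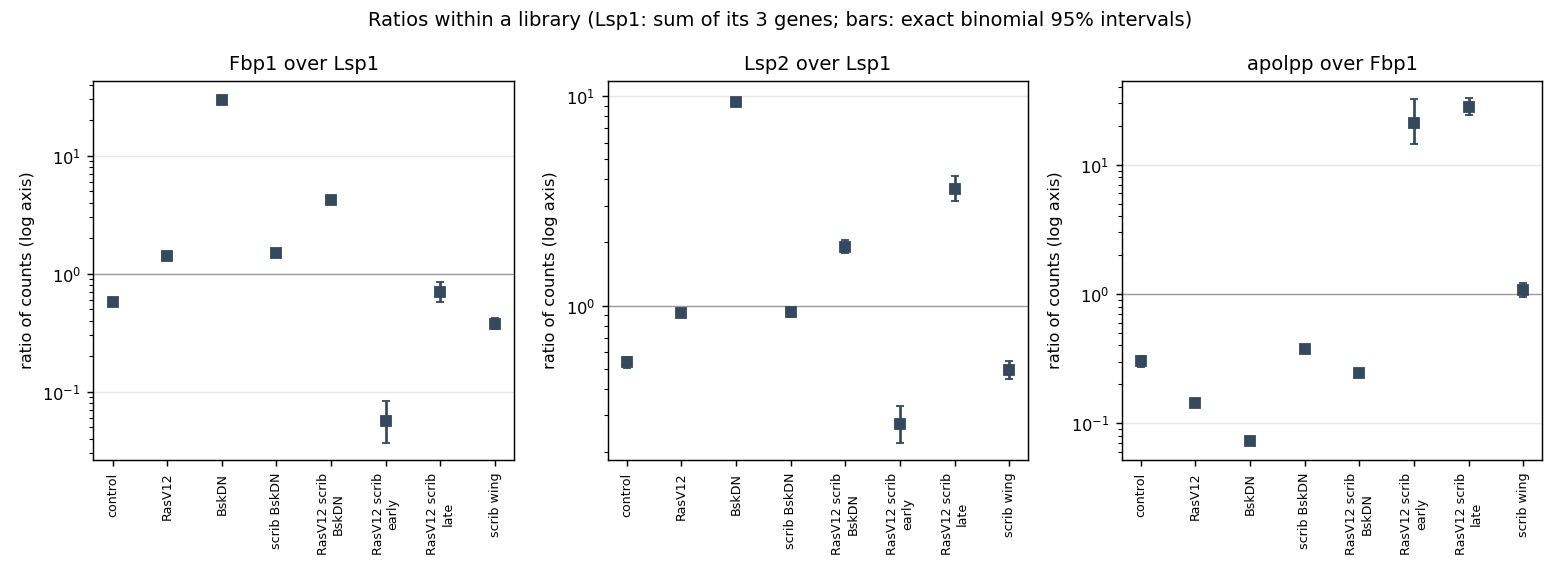
Ratios of counts within each library (log axes) for Fbp1 over the summed Lsp1 genes, Lsp2 over the summed Lsp1 genes and apolpp over Fbp1, 1 square per library, with exact binomial 95% intervals for counting error. BskDN has the highest values in the first 2 panels (29.4 and 9.35) and the lowest in the last (0.0730).

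Over the 8 libraries, the log2 levels of Lsp2, Fbp1 and Fbp2 were close to each other in pattern, as were those of the Lsp1 genes. As a description with no test, Pearson's r was 0.97 between Lsp2 and Fbp1, 0.97 between Fbp1 and Fbp2 and 0.89 between Lsp2 and Fbp2. Among the Lsp1 genes it was 0.95 for Lsp1alpha with Lsp1beta, 0.91 for Lsp1alpha with Lsp1gamma and 0.84 for Lsp1beta with Lsp1gamma. The points share the libraries, their depth and their scaling. For apolpp with the Lsp1 genes r was -0.15 to -0.00, with Lsp2 it was 0.60, with Fbp1 0.44 and with Fbp2 0.26.

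Each comparison below takes the difference of 2 libraries. To be called, a gene had to differ by 4-fold or more in log2 CPM with a prior count of 2 and to reach 5 CPM in the higher library, and the share of considered genes called in the same direction is given as the background. The 6 comparisons with control share that 1 library.

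In RasV12 discs, at the same labelled age as control, all 7 genes were higher. Fbp1 was called, at 5.41-fold (5.15 to 5.70), against 0.927% of considered genes called higher, and none of the 7 was called lower, against 3.27%. Lsp2 stood at 3.82-fold, Lsp1beta at 3.10-fold, apolpp at 2.56-fold, Lsp1gamma at 1.95-fold, Fbp2 at 1.85-fold and Lsp1alpha at 1.28-fold. The median log2 difference of the 7 was 1.35, beside 0.03 for all considered genes. At 2-fold, 4 of the 7 were higher, against 6.21% of considered genes, and none was lower, against 10.1%.

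In BskDN discs, at 11 days against 5, Fbp1, Lsp2, Fbp2 and apolpp were called higher, 4 of 7 against 0.688% of considered genes, and none was called lower, against 3.28%. Fbp1 was 38.4-fold higher (36.6 to 40.3), which placed it 4th of the 10029 considered genes. Lsp2 was 13.2-fold higher (12.5 to 13.9), Fbp2 11.6-fold (10.6 to 12.6) and apolpp 9.26-fold (8.47 to 10.1). The Lsp1 genes did not share this: Lsp1beta was at 1.19-fold, and Lsp1alpha and Lsp1gamma were lower by 2.17-fold and 2.40-fold. At 2-fold, 4 genes were higher and 2 lower, against 6.52% and 10% of considered genes. The labelled age differs between these libraries together with the transgene, so that age and genotype cannot be told apart. The male-specific RNA roX1 differed as well, at 120 CPM in BskDN against 502 in control, and larval sex is not labelled.

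In scrib BskDN discs, at 6 days, none of the 7 was called, against 3.11% of considered genes called higher and 3.15% called lower. Fbp1 was 2.52-fold and apolpp 3.14-fold higher than control, Fbp2 stood at 1.92-fold, Lsp2 at 1.68-fold and Lsp1gamma at 1.30-fold. Lsp1alpha was lower, at 0.742-fold (0.676 to 0.816), and Lsp1beta stood at 0.942-fold (0.872 to 1.02). At 2-fold, 2 of the 7 were higher and none lower, against 13.7% and 11.5%. Against BskDN, of 11 days, Fbp1 was lower by 15.2-fold, Lsp2 by 7.86-fold and Fbp2 by 6.01-fold. These 3 were called lower, against 1.31% of considered genes, and none was called higher, against 2.7%.

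In RasV12 scrib BskDN discs, at 6 days, Fbp1 was 2.42-fold, apolpp 1.95-fold and Fbp2 1.69-fold above control and Lsp2 was close to it at 1.18-fold, while the Lsp1 genes were lower, by 6.01-fold for Lsp1alpha, 3.34-fold for Lsp1gamma and 2.10-fold for Lsp1beta. Lsp1alpha was called lower, 1 of 7 against 3.41%, and none was called higher, against 1.11%. At 2-fold, 1 gene was higher and 3 were lower, against 8.16% and 9.89%. Against scrib BskDN, of the same labelled age, Lsp1alpha was lower by 4.46-fold and Lsp1gamma by 4.33-fold. These 2 were called lower, against 1.79% of considered genes, and none was called higher, against 1.06%. Fbp1 differed by 1.04-fold (1.00 to 1.08) between these libraries.

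In the early tumour, at 7 days, 6 of the 7 genes were called lower than in control, against 4.36% of considered genes, and none was called higher, against 1.01%. Fbp1 was 73.8-fold lower (50.5 to 112), Fbp2 21.2-fold, Lsp1alpha 21.0-fold, Lsp2 14.3-fold (11.9 to 17.2), Lsp1gamma 8.14-fold and Lsp1beta 4.60-fold. The exception was apolpp, which differed by 1.05-fold with an interval that spans equality (0.936 to 1.19). The median log2 difference of the 7 was -3.81, beside 0.02 for all considered genes. The same 6 genes were at least 2-fold lower and none was 2-fold higher, against 13.8% and 6.83%.

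Set against RasV12 discs, which share the Ras transgene and are 2 days younger by the labels, the early tumour had all 7 genes lower. Fbp1 was 399-fold lower (274 to 606), at place 10026 of 10029 in the order of log2 differences. Lsp2 was 54.6-fold, Fbp2 39.3-fold, Lsp1alpha 26.9-fold, Lsp1gamma 15.8-fold and Lsp1beta 14.3-fold lower. These 6 were called lower, against 2.07% of considered genes, none was called higher, against 1.45%, and apolpp was 2.70-fold lower.

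In the late tumour, at 11 days, the genes parted. Against control, apolpp was 8.96-fold higher (8.20 to 9.81) and was the 1 gene called higher, against 5.94% of considered genes. Called lower were 5 of the 7, against 3.94%: Lsp1alpha by 45.4-fold (30.1 to 72.0), Fbp2 by 17.8-fold, Fbp1 by 10.3-fold, Lsp1beta by 10.1-fold and Lsp1gamma by 8.14-fold. Lsp2 was 1.84-fold lower. At 2-fold the counts were again 1 higher and 5 lower, against 16.1% and 11.5%.

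From the early to the late tumour, apolpp stood 9.45-fold (8.67 to 10.3), Lsp2 7.75-fold (6.44 to 9.38) and Fbp1 7.14-fold (4.75 to 11.1) higher. These 3 were called higher, against 5.24% of considered genes, and none was called lower, against 0.14%. Fbp2 differed by 1.19-fold (0.702 to 2.03), Lsp1gamma stood at 5.24 CPM in both, and Lsp1alpha and Lsp1beta were lower in the late tumour by 2.16-fold and 2.20-fold. The 3 genes higher in the late tumour are thus the lipoprotein, the other hexamerin and the hexamerin receptor.

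**Figure D4:**
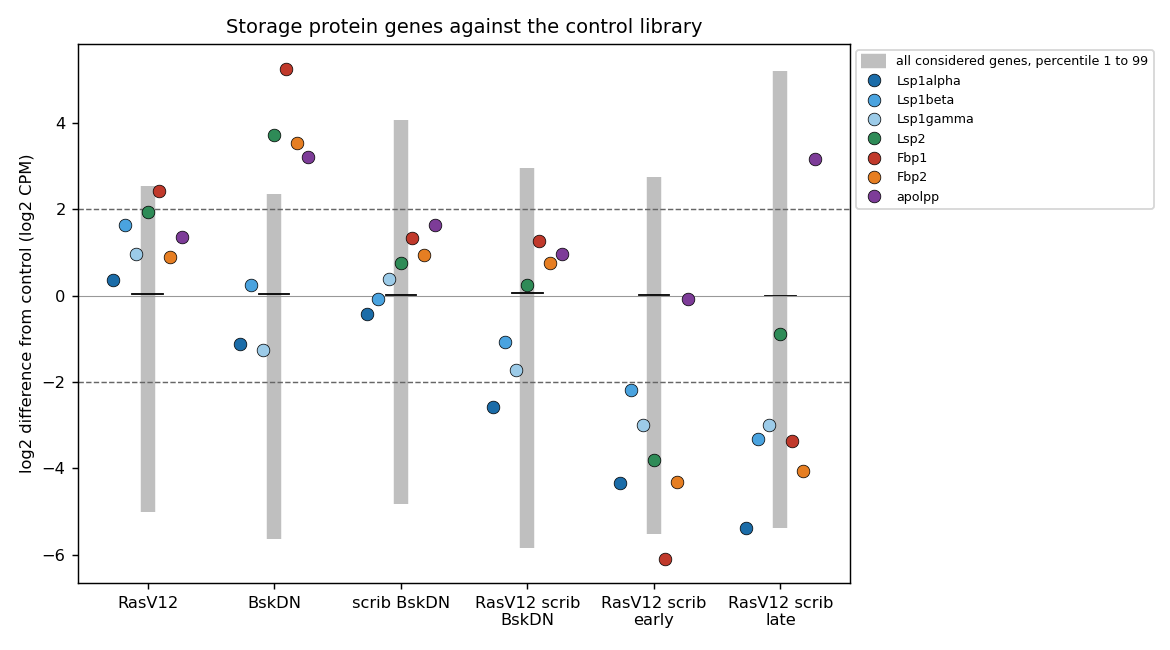
Log2 difference of each of the 7 genes from control (points, log2 CPM with a prior count of 2) in 6 libraries, with the range from percentile 1 to 99 of all considered genes as grey bars and their median as a black dash; dashed lines mark 4-fold. Fbp1 is at the top in BskDN and at the bottom in the early tumour, and apolpp parts from the other 6 genes in the late tumour.

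Blocking JNK in the tumour genotype went with higher levels of all 7 genes than in the early tumour, at 6 against 7 days. These libraries also differed in roX1, at 67.6 CPM with JNK blocked against 533 in the early tumour, and larval sex is not labelled. Fbp1 was 178-fold (122 to 271), Fbp2 35.9-fold and Lsp2 16.8-fold higher. These 3 were called higher, against 2.4% of considered genes, and none was called lower, against 1.56%. Lsp1alpha stood at 3.50-fold, Lsp1gamma at 2.44-fold, Lsp1beta at 2.19-fold and apolpp at 2.05-fold. Against the late tumour, Fbp2 was 30.1-fold, Fbp1 25.0-fold, Lsp1alpha 7.56-fold and Lsp1beta 4.83-fold higher in RasV12 scrib BskDN, and apolpp was 4.60-fold lower. That gave 4 genes called higher, against 1.6% of considered genes, and 1 called lower, against 3.7%.

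BskDN and the late tumour were the libraries of the greatest labelled age, 11 days each. Fbp1 was 397-fold higher in BskDN (343 to 461), first of the 10029 considered genes in the order of differences. Fbp2 was 205-fold, Lsp2 24.3-fold, Lsp1alpha 20.9-fold and Lsp1beta 12.1-fold higher. These 5 were called higher, against 2.87% of considered genes, and none was called lower, against 5.95%. Lsp1gamma stood at 3.39-fold, and apolpp at 1.03-fold (0.994 to 1.08), whose sign turned when libraries were scaled by size alone. The same labelled age went with levels at least 3.39-fold apart for 6 of these genes and with no difference beyond counting error for apolpp. Levels of roX1 differed between these libraries too, at 120 CPM in BskDN and 680 in the late tumour.

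Fbp1 is known as an ecdysone target, and 21 considered genes of ecdysone response and fat body regulation were read beside it. Of these, 1 was at least 2-fold higher and 3 lower than control in RasV12, 8 and 2 in BskDN, 6 and 0 in scrib BskDN, 6 and 0 in RasV12 scrib BskDN, 2 and 9 in the early tumour and 4 and 7 in the late tumour, against the shares of considered genes at 2-fold given above. ImpE2, an ecdysone-inducible gene of discs, stood at 1926 CPM in control, 2060 in RasV12, 2151 in RasV12 scrib BskDN, 482 in scrib wing, 2500 in scrib BskDN, 11.7 in the early tumour, 5872 in BskDN and 118 in the late tumour. Like Fbp1, it was highest in BskDN, lowest in the early tumour and next lowest in the late tumour. Hr3, a nuclear receptor induced by ecdysone, stood at 91.5, 30.9, 238, 14.8, 234, 0.619, 234 and 3.24 CPM in the same order of libraries, so that Fbp1 and Hr3 parted in RasV12, where Hr3 was lower than in control and Fbp1 higher. The levels of ftz-f1, which acts when ecdysone has declined, were highest in the early and late tumour (124 and 96.4 CPM) and lowest in BskDN (13.4). In RasV12, however, ftz-f1 was above control, as Fbp1 was, at 52.1 against 37.9 CPM. Cyp18a1, an ecdysone-degrading enzyme gene, was at 39.8 and 60.3 CPM in the tumours and 57.8 in scrib wing, against 5.16 to 15.1 in the others. Transcripts of EcR, the ecdysone receptor, stood at 105 to 187 CPM in all 8 libraries and those of its partner usp at 67.9 to 87.6. Within the list, ImpE3 ran like ImpE2, at 316 CPM in BskDN and 4.81 in the early tumour, but some genes did not follow Fbp1. Eip74EF stood at 81.6 to 134 CPM and Hr39 at 134 to 225 over all libraries. Eip93F was highest in the late tumour at 56.0 CPM, against 39.2 in BskDN, 4.76 in the early tumour and 8.38 in control.

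**Figure D5:**
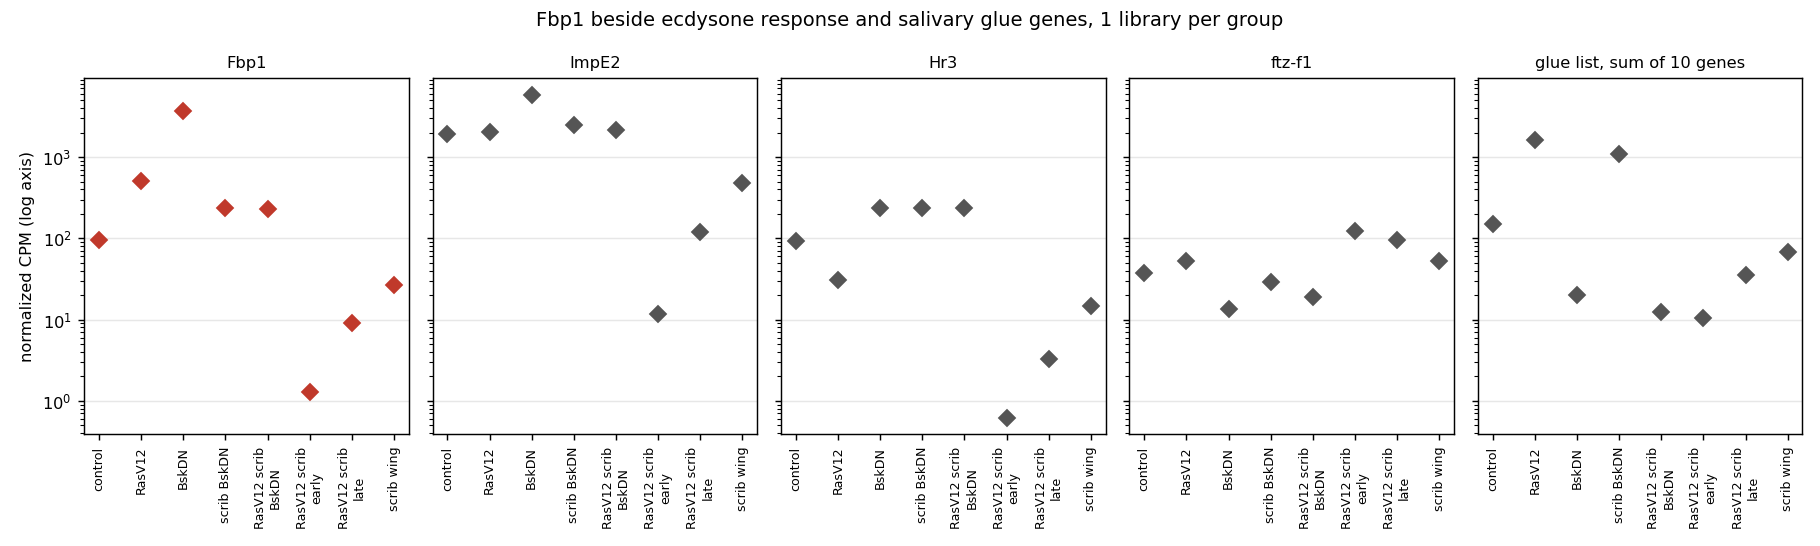
Level of Fbp1, of the ecdysone response genes ImpE2, Hr3 and ftz-f1 and of the sum of 10 salivary glue genes (normalized CPM on 1 shared log axis) in each of the 8 libraries, 1 point per library. Fbp1, ImpE2 and Hr3 are lowest in the early tumour, ftz-f1 is highest there, and the glue sum is highest in RasV12 (1609) and scrib BskDN (1081).

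Glue genes, expressed in the salivary gland in the middle of the last instar, were a second reading of stage and of attached tissue. Their summed level was 151 CPM in control, 1609 in RasV12, 12.5 in RasV12 scrib BskDN, 68.1 in scrib wing, 1081 in scrib BskDN, 10.6 in the early tumour, 20.1 in BskDN and 35.8 in the late tumour. The sum is not of 1 pattern: ng3 alone stood at 86.6 CPM in control, 27.8 in scrib wing and 14.3 in the late tumour, against 1.49 in RasV12. RasV12 was high for the glue sum and the summed storage genes alike. BskDN was the highest library for the summed storage genes and among the low ones for glue. Each Lsp1 gene, however, was highest in RasV12, as the glue sum was. Of the 10 glue genes, 7 stood 2-fold or more above control in RasV12, against 6.21% of considered genes. The other 3, ng1, ng2 and ng3, stood below it, against 10.1%. The same counts and genes held in scrib BskDN, against 13.7 and 11.5%, and in BskDN none was higher and 9 were lower, against 6.52 and 10%. The 10 late puff genes of the Eig71E cluster, which follow glue genes in the salivary gland, summed to 33.1 CPM in BskDN and to 0.0952 to 3.39 in the other 7 libraries, with 1 gene at 0 in BskDN and 3 to 9 at 0 elsewhere. Whether salivary gland tissue had a part in the levels of the storage genes was not tested.

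Other genes active in fat body were counted in the same way. Of 9 considered, those 2-fold above and below control numbered 2 and 3 in RasV12, against 6.21 and 10.1% of considered genes, and 3 and 1 in BskDN, against 6.52 and 10%. They numbered 3 and 1 in scrib BskDN (13.7 and 11.5%), 4 and 1 in RasV12 scrib BskDN (8.16 and 9.89%), 3 and 1 in the early tumour (6.83 and 13.8%) and 2 and 1 in the late tumour (16.1 and 11.5%). The median log2 difference of the list from control was 0.34 to 0.66 in the 6 libraries, beside -0.02 to 0.06 for all considered genes. The 12 matched genes of the list summed to 524 CPM in control, 348 in RasV12, 385 in RasV12 scrib BskDN and 371 in scrib wing. In scrib BskDN the sum was 521 CPM, in the early tumour 382, in BskDN 452 and in the late tumour 325, the lowest. Most of the control sum came from Tsf1 (243 CPM) and Lsd-2 (182 CPM), so it does not speak for the whole list. Apoltp, whose product helps load lipid onto the lipoprotein that apolpp builds, stood at 0.591 CPM in control, 1.44 in RasV12, 4.17 in RasV12 scrib BskDN, 1.75 in scrib wing, 1.80 in scrib BskDN, 3.48 in the early tumour, 4.61 in BskDN and 18.2 in the late tumour. It was highest in the late tumour, 30.7-fold above control (17.0 to 62.1), though the control value rests on 11 counts. By contrast, mdy of the same list was lowest in the late tumour, at 27.3 CPM against 44.8 in control. Tsf1, an iron carrier of the hemolymph, was highest in control at 243 CPM and lowest in BskDN at 12.2, where Fbp1 and Lsp2 were highest. Ilp6, an insulin-like peptide gene of the fat body, was highest in BskDN at 34.5 CPM, against 9.18 in control and 4.52, the lowest, in RasV12. Yolk protein genes, which the fat body of adult females makes, were at 1.70 CPM or less in all libraries, and AkhR, the receptor gene for adipokinetic hormone, at 0.449 or less. The lipoprotein receptor genes LpR1 (25.0 to 51.8 CPM) and LpR2 (176 to 265) were less than 2-fold from control in all 6 comparisons with it.

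Markers of other cell types were given for the same libraries. The 10 matched hemocyte markers (blood cells, some of which adhere to discs) summed to 2748 CPM in control, 728 in RasV12, 1787 in RasV12 scrib BskDN, 1303 in scrib wing, 1316 in scrib BskDN, 2062 in the early tumour, 1878 in BskDN and 1295 in the late tumour, and none was at 0 in any library. The hemocyte sum was lowest in RasV12, where the summed level of the storage genes was second highest. Its second highest value, in the early tumour, came mostly from Ppn (654 CPM), Hml (517) and PPO2 (391), while eater (33.0) had its lowest level there. The list median differed from control in log2 CPM by -0.24 in BskDN, -0.38 in RasV12 scrib BskDN and -0.77 in the early tumour. Muscle markers summed to 5461 CPM in control and 148 to 604 in the others, with 1 of the 10 matched markers at 0 in RasV12 and in BskDN. The 8 neuron markers summed to 685 CPM in the late tumour, the highest, against 96.0 to 597 in the others, and the 6 glia markers to 421 to 651 over all libraries, with no marker of either list at 0. Much of the glia sum came from nrv2 (278 to 461 CPM), and single glia markers differed more. The level of alrm was 1.02 CPM in control and 77.4 in the late tumour. Gs2, on the other hand, was highest in control at 87.5 CPM, against 33.3 in the late tumour. The 3 matched trachea markers summed to 2.33 to 26.8 CPM. The part of these cell types in the levels of the storage genes was not tested.

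Lsp1alpha is X-linked and is known in this species to escape dosage compensation, while the other Lsp1 genes are autosomal. Its share of the Lsp1 counts was 31.9% in control, 18.3% in RasV12, 16.0% in RasV12 scrib BskDN, 16.7% in scrib wing, 24.4% in scrib BskDN, 10.9% in the early tumour, 19.4% in BskDN and 8.71% in the late tumour. Control was highest and the tumours were lowest. The male-specific RNA roX1 was at 60.1 to 120 CPM in the 3 libraries with UAS-Bsk[DN], whose labels give that transgene over the y,w,eyflp X chromosome, and at 478 to 711 in the other 5. The Lsp1alpha share was 16.0 to 24.4% in those 3 libraries and 8.71 to 31.9% in the other 5, so the ranges overlapped. Every comparison of a library with UAS-Bsk[DN] to a library without it thus also differs in roX1. The sex of the larvae is not labelled, and its part in the levels of the storage genes was not tested.

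Among 8069 named genes outside the 7, those most like the mean of their log2 levels over the 8 libraries were CG3842, lft, Obp99b, CG17754, CG6280, cysu, CG4928, CG4238, Spn43Aa and bip1, with Pearson's r of 0.95 to 0.97. Some of these had a wide range, such as Obp99b, an odorant-binding protein gene, at 388 CPM in BskDN and 1.29 in the early tumour, and Spn43Aa, a serpin gene, at 602 and 4.81. Others were nearly level, such as lft, at 228 and 131. The genes most like single members were CG2233 for Lsp2 (r of 0.99), CG3253 for Fbp1 (0.98), CG13064 for Fbp2 (0.98), Ublcp1 for Lsp1alpha (0.98), Tango2 for Lsp1beta (0.96), the glue gene Sgs7 for Lsp1gamma (0.93) and PGAP1 for apolpp (0.93). Of the 10 genes most like the mean, 4 stayed among the first 10 when the 7 eye-antennal libraries alone were used.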

How the data were processed

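RNA of imaginal discs from 8 groups, 1 library each, was sequenced. The authors deposited 1 table of raw read counts per gene, with FlyBase identifiers and 5 tally rows, which were left out (reads in no gene were 3.41 to 7.33% of a library's reads, reads fitting more than 1 gene 1.46 to 1.83%, reads aligned to several places 14.8 to 27.8%). Per the submitters' processing notes, TopHat2 and HTSeq were used. Versions, genome build, annotation and strand setting were not given in the sources used here, and overlapping or antisense genes cannot be separated. A BDGP6 annotation, joined by identifier, gave names (to 14639 of 15348), coordinates and exon lengths.

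The deposited counts were scaled with edgeR 4.0.16 (TMM) in R 4.3.3. Levels are normalized CPM with exact Poisson intervals, folds are ratios of normalized CPM with exact conditional binomial (Clopper-Pearson) 95% intervals, and ratios and shares have exact binomial intervals. Log2 CPM had a prior count of 2. Considered genes had at least 1 CPM in 1 library. A single count equals 0.0473 to 0.0605 CPM, and the floor of 3 counts equals 0.142 to 0.181 CPM. No test was run across genes: calls (4-fold, 5 CPM) describe 2 libraries. The steps that call genes and compute intervals were tested on simulated data.

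The genes and the 11 lists were chosen with earlier results of these data known. Of 107 list entries 99 were matched; Mtp, FASN1, br, Hr4, PPO1, Mhc, wupA and btl were not. Named genes are the 7, at most 4 examples per list with the largest differences or a marker at 0, the 10 genes most like the mean of the 7 and the 3 most like each, of which the first is printed. Examples outside that rule were chosen after their values were seen. These were EcR, usp, ImpE2, Hr3 and ftz-f1 in every library, ImpE3, Eip74EF, Hr39, Eip93F, the yolk protein genes, AkhR, LpR1, LpR2 and roX1. Alternatives were DESeq2 1.42.0 size factors, library size alone, upper-quartile scaling, no filter, prior counts of 0.5 and 5, a 2-fold call, the median of the other eye-antennal libraries as baseline, exon length, and omission of Fbp1; the RasV12 baseline and scaling without member and marker genes were added after seeing the data.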

Additional observations from a re-analysis of the deposited data

Results flagged for a closer look

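The contrast with and without the Ras transgene was available in discs with neither scrib clones nor BskDN (RasV12 against control) and in discs with both (RasV12 scrib BskDN against scrib BskDN). All 7 storage protein genes were higher with RasV12 in the first setting. In the second all stood lower, though only slightly for Fbp1 (0.959-fold) and Fbp2 (0.881-fold). The share of considered genes that ran in the same 2 directions is not given, so the count of 7 has no background. The difference between settings was not tested, since each group had 1 library. The gap between both log2 differences was 3.07 for Lsp1gamma (1.95-fold against 0.231-fold), 2.62 for Lsp1beta (3.10 against 0.505), 2.51 for Lsp1alpha (1.28 against 0.224), 2.50 for Fbp1 (5.41 against 0.959), 2.44 for Lsp2 (3.82 against 0.703), 2.05 for apolpp (2.56 against 0.620) and 1.07 for Fbp2 (1.85 against 0.881). For Fbp1 the second fold was within 1.04-fold of equality. Libraries within each setting had the same labelled age, 5 days in the first and 6 in the second.

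The contrast with and without BskDN ran in opposite directions for 2 hexamerin subunit genes. Lsp1alpha was lower in BskDN than in control, at 0.461-fold, and higher in RasV12 scrib BskDN than in the early tumour, at 3.50-fold, a gap of -2.93 on the log2 scale. Lsp1gamma did the same, at 0.416-fold and 2.44-fold, a gap of -2.55. Against the median of the other eye-antennal libraries in place of control, Lsp1alpha in BskDN was higher, by 0.39 in log2. Neither gap was tested, and labelled ages differ within these contrasts (11 against 5 days, and 6 against 7). Levels of roX1, given above, differ within them as well.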

How the results depend on the processing

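Scaling, the filter and the prior count moved no count of called genes among the 7. The largest shift of a log2 difference was 0.05 with DESeq2 size factors, 0.06 with upper-quartile factors, 0.14 with library size alone, 0.09 and 0.16 with prior counts of 0.5 and 5, and 0.002 without member and marker genes. Only the sign of differences near 0 turned, for Lsp1gamma between the tumours and apolpp between BskDN and the late tumour.

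The baseline mattered more. No share of considered genes is given for the other baselines, so the member counts against them have no background beside them. Against the median of the other eye-antennal libraries, 3 genes were called higher in RasV12, none was 2-fold lower in BskDN, and in RasV12 scrib BskDN none was called lower (0) and 0 were 2-fold higher. Against RasV12, a baseline chosen after seeing the data, BskDN had 2 genes called higher and 1 lower, scrib BskDN had 0 at 2-fold higher and 3 lower, RasV12 scrib BskDN had 3 called lower, 0 at 2-fold higher and 5 lower, and the late tumour had 0 called higher. The sign of 5 log2 differences turned against the median and of 8 against RasV12. Against the median, Lsp1alpha turned from -1.11 to 0.39 in BskDN and from -0.43 to 1.42 in scrib BskDN, Lsp1beta from -0.09 to 0.45 in scrib BskDN, and in RasV12 scrib BskDN apolpp from 0.96 to -0.54 and Lsp2 from 0.24 to -0.14. Against RasV12, Lsp1beta turned from 0.25 to -1.38 in BskDN; in scrib BskDN, Fbp1 turned from 1.33 to -1.10, Lsp2 from 0.74 to -1.19 and Lsp1gamma from 0.38 to -0.58; in RasV12 scrib BskDN, Fbp1 turned from 1.27 to -1.16, Lsp2 from 0.24 to -1.70, Fbp2 from 0.76 to -0.13 and apolpp from 0.96 to -0.40. With a 2-fold call at 5 CPM, counts over control moved to 4 higher in RasV12, 2 lower in BskDN and 2 higher in scrib BskDN. In RasV12 scrib BskDN they moved to 1 higher and 3 lower. From early to late tumour, 1 gene was called lower. RasV12 scrib BskDN had 7 genes higher against the early tumour and 6 against the late one. The early tumour had 7 lower against RasV12, and BskDN had 6 higher against the late tumour. For scrib BskDN set against BskDN, the call gave 1 gene up and 4 down. No share of considered genes is given for this call, so its counts have no background. Of the 10 genes most like the mean, 4 were shared with 7 libraries and 4 with Spearman's rho. The causes of these shifts were not tested.

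No paired analysis was possible because each group had 1 library, and no replicate could be left out. Differences between conditions have no replicate error here, and levels in the tumours rest on as few as 23 counts.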
